A study of Homo sapiens with 18 samples.

Results

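Condensins are the ring-shaped protein complexes that fold chromatin into compact mitotic chromosomes. The genes described here encode the 8 subunits of the human condensins and 2 proteins that work on the same chromosomes, TOP2A and MKI67. They were chosen by name from the gene tables. All 10 were found, among 22136 genes counted at 2 days and 21276 genes counted at 7 days, and all 10 had enough reads to be tested in every comparison. RNA-Seq had been run on poly(A) RNA of C4-2B cells, a human prostate cancer line that grows after castration, labelled wild type in every library. The 18 libraries fall into 6 groups of 3. At 2 days there were DMSO vehicle (VEH) and 0.1 μM VIC-1911, an inhibitor of the mitotic kinase AURKA. At 7 days there were vehicle, 0.1 μM VIC-1911, 1 μM olaparib, which inhibits the DNA repair enzyme PARP, and both drugs together at these doses (COMBO). The data come from 1 cell line in culture. The labels do not say whether replicates were separate cultures, so that p-values measure only the spread between these samples.

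SMC2 and SMC4 are the ATPases that form the arms of every condensin ring. Condensin I adds NCAPH, the kleisin that closes the ring, and the HEAT-repeat subunits NCAPD2 and NCAPG. Condensin II adds the paralogs NCAPH2, NCAPD3 and NCAPG2. Condensin II is nuclear throughout the cell cycle and shapes chromosomes from prophase, while condensin I reaches them when the nuclear envelope has broken down. TOP2A, topoisomerase II alpha, passes DNA strands through each other and removes the links between sister chromatids. MKI67, or Ki-67, coats mitotic chromosomes, keeps them apart and is the classic marker of dividing cells. Because messages of this group rise as cells go from S phase to mitosis, their level in bulk RNA depends on how many cells are in these phases, and fewer such cells and less RNA per cell cannot be told apart here.

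The libraries held 3245273 to 7184420 counts at 2 days and 4967931 to 19684208 counts at 7 days, with olaparib replicate 1 the shallowest of the 7-day libraries. A member had between 76 and 3672 counts in a library. Of 10 luminal prostate markers, led by KLK3 (PSA), the summed level was 2535 to 2826 FPKM at 2 days (fragments per kilobase of transcript, scaled by library size, which is a level per length), 4448 to 4485 FPKM in the 7-day vehicle and 2940 to 3363 FPKM in the 7-day drug groups. The part of this marker difference in the results at 7 days was not tested. Of 10 fibroblast, leukocyte and endothelial markers, the sum was 7.30 to 12.8 FPKM, most of it CD68. The 7-day vehicle and VIC-1911 libraries carry consecutive library numbers and the olaparib and COMBO libraries another consecutive run of numbers. A comparison across these runs therefore holds the drug and the run together, and they cannot be told apart.

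The members lie on 10 different chromosomes (RefSeq positions, GRCh38.p14): SMC2 at chr9:104088263-104141419, SMC4 at chr3:160399650-160434953, NCAPD2 at chr12:6494102-6531955, NCAPG at chr4:17810979-17844865, NCAPH at chr2:96335766-96377091 and NCAPH2 at chr22:50508224-50524780 on the plus strand, and NCAPD3 at chr11:134150113-134225461, NCAPG2 at chr7:158631169-158704804, TOP2A at chr17:40388525-40417896 and MKI67 at chr10:128096659-128126423 on the minus strand. Exons of 5 members overlap exons of a gene on the other strand, and whether the counting used strand is not given in the sources used here, so that these counts are uncertain. NCAPG shares 1634 exon bases with LCORL, NCAPD3 shares 1889 with JAM3, SMC4 shares 1553 with TRIM59, NCAPH2 shares 857 with SCO2 and NCAPD2 shares 383 with MRPL51. NCAPD3 also shares 249 with VPS26B, and SMC4 shares 243 with IFT80. In the 7-day vehicle LCORL, JAM3 and SCO2 were at 0.673, 1.20 and 0.457 FPKM and TRIM59 was at 4.89 FPKM. MRPL51 was at 110.3 FPKM, far above NCAPD2, VPS26B at 27.7 FPKM, above NCAPD3 (10.2 FPKM), and IFT80 at 8.21 FPKM. On the log2 scale IFT80 fell with VIC-1911 at 2 days (-0.30) and with COMBO (-0.58), as SMC4 did. With VIC-1911 at 7 days IFT80 fell (-0.48) while SMC4 rose. The part of these neighbors in the members' counts was not tested. NCAPH2 also shares 855 exon bases with a long noncoding RNA gene on its own strand. SMC2, NCAPH, NCAPG2, TOP2A and MKI67 share no exon bases with an annotated gene.

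The promoters of the members are shown as background, and a link between their motifs and the changes described below was not tested. A known arrangement at genes of late cell cycle phases is a CHR element (TTTGAA or TTCGAA), which is bound by the DREAM repressor and by activators that share its MuvB core, with CCAAT boxes nearby. Windows of 300 bases, from 250 before to 50 after the RefSeq start (GRCh38.p14), were available for 9 members and were searched on both strands, with every start of a gene counted. A CHR match was present in 8 of 9 members and in 19.5% of 27306 genes. A CCAAT match was present in 5 of 9 members and in 39.7% of all genes, and both motifs in 4 of 9 members and 9.02% of all genes. An E2F match (TTCCCGC or TTGGCGC) was present in 2 of 9 members, NCAPG and NCAPD3, and in 11% of all genes. A match is only a run of letters and not a shown binding site. The 200 bases before the start are given for TOP2A, MKI67 and NCAPD2, which had both motifs, for NCAPG, which had a CHR match and E2F matches, and for NCAPH, which had no CHR match. Each runs 5′ to 3′ toward the gene, and capitals mark CHR and CCAAT matches on either strand (a CCAAT box on the other strand reads ATTGG). In MKI67 the CHR match nearest to the start shares a base with a CCAAT match.
TOP2A, chr17:40417897-40418096, minus strand: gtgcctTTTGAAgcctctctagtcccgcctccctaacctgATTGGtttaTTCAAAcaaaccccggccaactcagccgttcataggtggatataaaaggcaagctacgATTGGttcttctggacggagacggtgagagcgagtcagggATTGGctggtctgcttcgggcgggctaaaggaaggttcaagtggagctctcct
MKI67, chr10:128126424-128126623, minus strand: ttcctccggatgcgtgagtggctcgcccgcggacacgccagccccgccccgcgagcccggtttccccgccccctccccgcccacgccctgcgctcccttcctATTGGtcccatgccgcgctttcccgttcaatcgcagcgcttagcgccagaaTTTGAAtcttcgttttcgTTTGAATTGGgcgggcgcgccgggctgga
NCAPD2, chr12:6493902-6494101, plus strand: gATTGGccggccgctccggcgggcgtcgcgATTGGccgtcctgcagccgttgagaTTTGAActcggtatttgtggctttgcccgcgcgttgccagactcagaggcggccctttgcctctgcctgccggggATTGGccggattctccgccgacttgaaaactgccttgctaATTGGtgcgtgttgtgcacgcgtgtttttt
NCAPG, chr4:17810779-17810978, plus strand: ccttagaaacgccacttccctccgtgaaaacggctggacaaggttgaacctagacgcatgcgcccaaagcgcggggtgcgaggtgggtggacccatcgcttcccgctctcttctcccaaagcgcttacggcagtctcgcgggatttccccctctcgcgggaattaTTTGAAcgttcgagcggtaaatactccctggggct
NCAPH, chr2:96335566-96335765, plus strand: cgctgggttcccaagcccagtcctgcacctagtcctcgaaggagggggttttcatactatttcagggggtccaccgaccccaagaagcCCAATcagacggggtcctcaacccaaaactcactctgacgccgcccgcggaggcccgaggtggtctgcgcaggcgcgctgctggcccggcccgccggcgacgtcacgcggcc
TOP2A and NCAPD2 each held several CCAAT matches on the opposite strand, while NCAPH held 1 CCAAT match.

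In the vehicle at 2 days NCAPD2 and SMC4 were the most abundant subunits, at 44.4 ± 2.47 and 40.3 ± 1.05 FPKM (SD, n = 3 here and throughout). NCAPH was the least abundant, at 7.60 ± 0.583 FPKM. TOP2A stood at 29.4 ± 1.19 FPKM and MKI67 at 15.2 ± 1.63 FPKM. In the 7-day vehicle every member was lower, from NCAPD2 at 17.7 ± 1.54 FPKM to NCAPH at 1.54 ± 0.362 FPKM. The ratio of the 2-day to the 7-day vehicle level was 4.92 for NCAPH, 3.86 for NCAPG, 3.70 for SMC4, 3.37 for TOP2A, 2.68 for MKI67 and 1.42 for NCAPH2, the smallest. The time points were deposited as separate tables, so that these ratios carry no test.

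**Figure D1:**
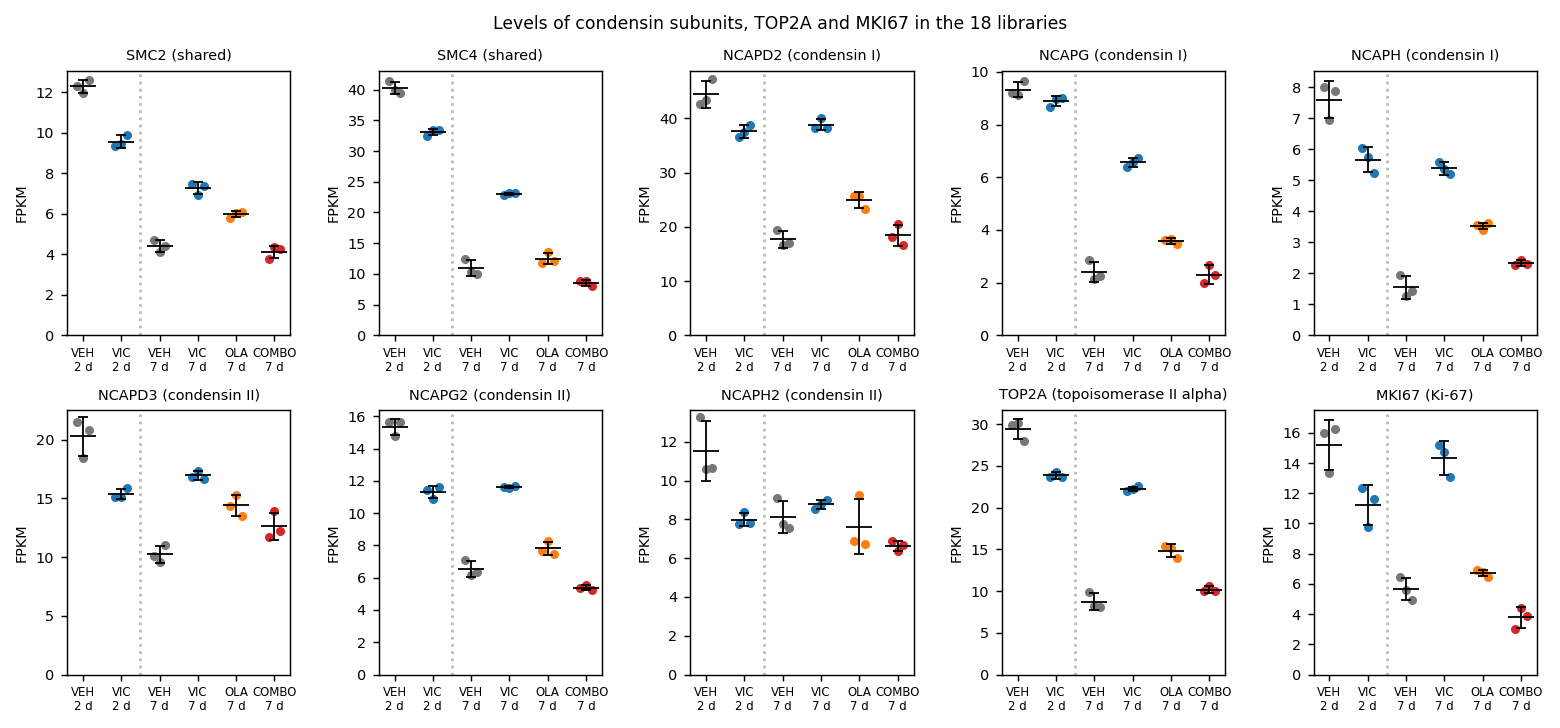
FPKM of each of the 10 genes (vertical axes, starting at 0) in the 3 libraries of each group (points), with the mean and SD (black lines), a dotted line separating the 2-day from the 7-day groups. In the 7-day groups all VIC-1911 libraries (blue) lie above all others for every gene but NCAPH2, where they overlap with vehicle and olaparib. The share of all tested genes that lie apart in this way was not counted.

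After 2 days of VIC-1911, 9 of the 10 members were lower than in vehicle (edgeR's quasi-likelihood test with Benjamini-Hochberg adjustment over 12241 genes, adjusted p under 0.05), where 7.19% of all tested genes passed as lower. The falls were shallow, with a median log2 fold change of -0.36 over the 10 members against 0.00 over all genes. All 3 condensin II subunits fell by 0.39 to 0.48 on the log2 scale, SMC2 and SMC4 fell by 0.33 and 0.26, and NCAPD2 and NCAPH of condensin I fell by 0.23 and 0.40. The deepest fall, 1.40-fold for NCAPH2, did not reach the 1.5-fold limit used in the study at this time, which 1.33% of all genes passed downward.

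NCAPH2 was at 13.3, 10.6 and 10.6 FPKM in the vehicle and at 7.76, 8.38 and 7.82 FPKM in the VIC-1911–treated libraries (log2 fold change -0.48 ± 0.08 SE, adjusted p = 7.03e-05). The groups did not overlap, and the difference was not carried by the high vehicle library alone, since the other two also lay above every treated library. NCAPG2 was at 15.7, 14.8 and 15.6 FPKM in the vehicle and at 11.4, 10.9 and 11.6 FPKM with VIC-1911 (-0.40 ± 0.06, adjusted p = 3.71e-06). NCAPD3 was at 21.5, 18.4 and 20.8 FPKM in the vehicle and at 15.1, 15.1 and 15.9 FPKM with VIC-1911 (-0.39 ± 0.06, adjusted p = 1.09e-05). For these condensin II subunits too, every treated library lay below every vehicle library.

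NCAPG was the member that did not pass. It was at 9.20, 9.12 and 9.66 FPKM in the vehicle and at 8.68, 8.99 and 9.0 FPKM with VIC-1911, a log2 fold change of -0.07 ± 0.08 that did not pass (adjusted p = 0.586, 95% interval -0.23 to 0.08). MKI67 was at 16.0, 13.3 and 16.3 FPKM in the vehicle and at 12.3, 9.76 and 11.6 FPKM with VIC-1911 (-0.41 ± 0.07, adjusted p = 2.79e-05). TOP2A was at 30.0, 30.2 and 28.0 FPKM in the vehicle and at 23.6, 24.3 and 23.7 FPKM with VIC-1911 (-0.29 ± 0.05, adjusted p = 8.35e-05). Neither gene overlapped between the groups, but NCAPG, which did not pass, did not overlap either. The share of all tested genes whose libraries did not overlap was not counted, here or at 7 days. The call of NCAPD2 rested on vehicle replicate 3, without which its log2 fold change was -0.17 (adjusted p = 0.0529).

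The other genes of the cell cycle did not all move this way at 2 days. Of 16 G1/S genes 11 fell and 1 rose, with E2F1, the S phase activator (-0.43, adjusted p = 1.34e-05), and RRM2 of ribonucleotide reductase (-0.33, adjusted p = 3.49e-05) among the falls and CCNE1 rising (0.35, adjusted p = 0.0345). Of 15 G2/M genes only 3 fell and 2 rose. The kinetochore protein gene CENPF fell by 0.47 (adjusted p = 1.98e-08) and the cyclin gene CCNA2 fell by 0.42 (adjusted p = 4.74e-05). CDC20, the activator of the anaphase-promoting complex, rose by 0.24 (adjusted p = 0.0029), and AURKA, the target of VIC-1911, rose by 0.24 (adjusted p = 0.00755). Median log2 fold changes were -0.27 for the G1/S and -0.08 for the G2/M genes. Of 16 tested genes of cohesin, the sister complex that holds chromatids together, and of its regulators, 6 fell and none rose. Among the falls were the cohesin kleisin RAD21 (-0.25, adjusted p = 0.000268) and the regulator sororin, CDCA5 (-0.35, adjusted p = 0.000364). None of 7 tested SMC5/6 genes passed. Of 11 tested regulators and partners of condensin 3 fell and 1 rose, at a median of -0.02. AURKB, which phosphorylates condensin I in mitosis, fell by 0.45 (adjusted p = 0.000468) and CDK1 fell by 0.26 (adjusted p = 0.000277). PLK1 (0.01, adjusted p = 0.966) and CCNB1 (-0.02, adjusted p = 0.827) did not pass. Of 6 partners of Ki-67 at the chromosome periphery 3 rose and none fell, at a median of 0.12. Of the other topoisomerases TOP1 rose by 0.19 (adjusted p = 0.00968).

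**Figure D2:**
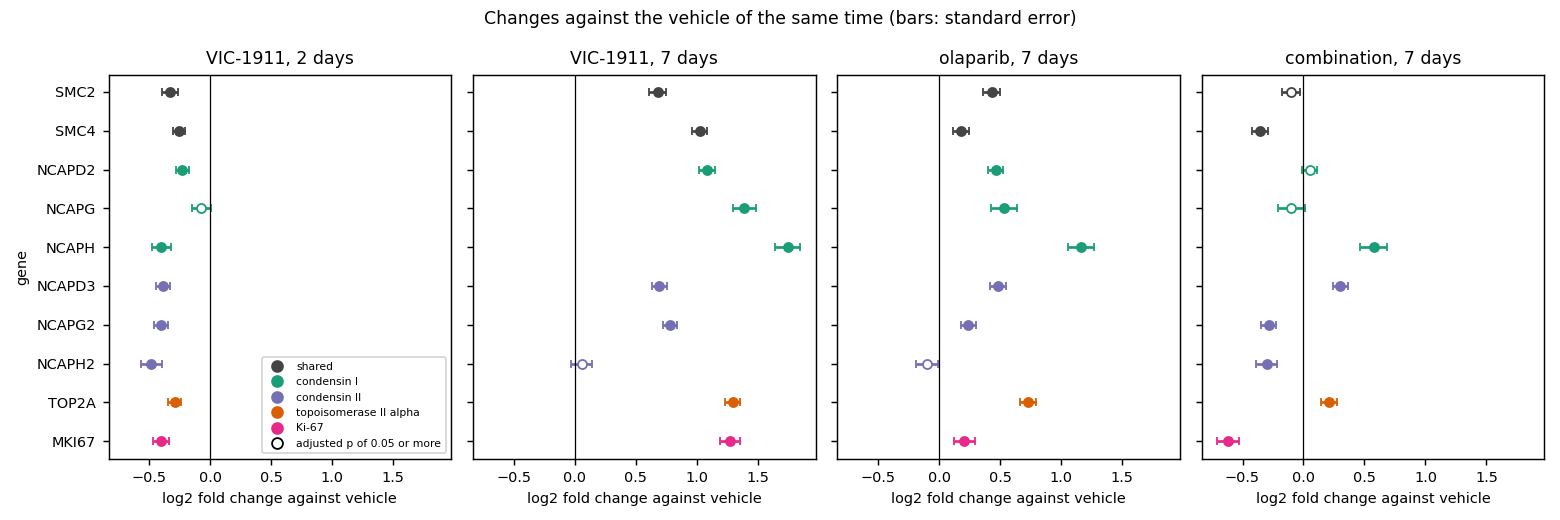
Log2 fold change (horizontal axes) of the 10 genes against the vehicle of the same time, with the SE as bars, colored by role, open points for an adjusted p of 0.05 or more. Points lie left of 0 after 2 days of VIC-1911 and right of 0 after 7 days, with condensin I subunits at 1.09 to 1.75 and condensin II subunits at 0.06 to 0.78, and they scatter around 0 with COMBO.

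After 7 days of VIC-1911 the direction was opposite. Of the 10 members 9 were higher than in the 7-day vehicle, where 26.7% of 14409 tested genes passed as higher, and the median log2 fold change was 1.06 against -0.01 over all genes. At least 2-fold increases were found for 6 members, SMC4, NCAPD2, NCAPG, NCAPH, TOP2A and MKI67, where 3.46% of all genes were called higher at this limit. All 3 condensin I subunits were among them and no condensin II subunit was. SMC4 was under 2-fold without vehicle replicate 2 (log2 0.95) or 3 (0.97).

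NCAPH, the kleisin of condensin I, rose from 1.95, 1.26 and 1.42 FPKM in the vehicle to 5.6, 5.35 and 5.20 FPKM with VIC-1911, 3.35-fold (log2 1.75 ± 0.10, adjusted p = 8.59e-15). NCAPG rose from 2.85, 2.15 and 2.24 FPKM to 6.40, 6.57 and 6.75 FPKM, 2.63-fold (1.39 ± 0.10, adjusted p = 5.27e-13). NCAPD2 rose from 19.5, 16.6 and 17.0 FPKM to 38.2, 40.0 and 38.3 FPKM, 2.12-fold (1.09 ± 0.06, adjusted p = 5.55e-15). No vehicle library reached any treated library for these 3 subunits. LCORL and MRPL51, which share exon bases with NCAPG and NCAPD2, changed by 0.07 (adjusted p = 0.666) and 0.27 (adjusted p = 7.32e-05) on the log2 scale. In FPKM MRPL51 went from 110.3 in the vehicle to 137.4 with VIC-1911. The part of these neighbors in the rises of NCAPG and NCAPD2 was not tested.

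The log2 fold changes of condensin II were smaller. NCAPG2 rose from 7.09, 6.14 and 6.38 FPKM to 11.6, 11.5 and 11.7 FPKM, 1.72-fold (0.78 ± 0.06, adjusted p = 2.64e-12). NCAPD3 rose from 10.1, 9.62 and 11 FPKM to 16.8, 17.3 and 16.7 FPKM, 1.62-fold (0.69 ± 0.06, adjusted p = 1.39e-10). NCAPH2 was at 9.09, 7.74 and 7.54 FPKM in the vehicle and at 8.53, 8.77 and 9.01 FPKM with VIC-1911, and this difference did not pass (0.06 ± 0.09, adjusted p = 0.609, 95% interval -0.12 to 0.24). Its libraries overlapped, with vehicle replicate 1 above all treated libraries. A differing change between the paralogs of a pair was not tested.

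The shared subunits both passed. SMC4 rose from 12.4, 10.2 and 10.0 FPKM to 22.8, 23.1 and 23.1 FPKM (1.03 ± 0.06, adjusted p = 2.13e-14), while SMC2 rose from 4.69, 4.10 and 4.39 FPKM to 7.48, 6.91 and 7.39 FPKM (0.68 ± 0.07, adjusted p = 1.06e-09). TOP2A rose from 9.91, 8.22 and 8.04 FPKM to 22.0, 22.3 and 22.5 FPKM, 2.46-fold (1.30 ± 0.06, adjusted p = 4.68e-17). MKI67 rose from 6.43, 5.62 and 4.94 FPKM to 15.2, 14.7 and 13.1 FPKM, 2.42-fold (1.28 ± 0.08, adjusted p = 1.26e-13). In all 4 genes the vehicle and the treated libraries were apart.

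The cell cycle genes around them rose as well at 7 days. All 15 G2/M genes were higher, with a median log2 fold change of 1.51, with the lowest p-values for the spindle checkpoint kinase BUB1B (1.76, adjusted p = 4e-17) and AURKA (1.86, adjusted p = 4.24e-16), and all 16 G1/S genes were higher, with a median of 1.03. Of 11 tested regulators and partners of condensin 8 rose and 1 fell, at a median of 0.24. CDK1, which phosphorylates condensins at mitotic entry, rose from 11.1 to 40.1 FPKM (1.82, adjusted p = 2.02e-18). PLK1, which acts on condensin II, rose by 1.74 on the log2 scale (adjusted p = 2.56e-14). Among the partners of Ki-67 at the chromosome periphery all 6 were higher, with CDCA2 (Repo-Man) at 1.62 (adjusted p = 1.96e-14) and nucleolin NCL at 0.53 (adjusted p = 7.06e-12). Of 16 genes of cohesin and its regulators 10 rose and 2 fell, at a median of 0.23. The risers with the lowest p were the separase gene ESPL1 (1.16, adjusted p = 1.64e-12) and the acetyltransferase gene ESCO2 (1.40, adjusted p = 2.37e-12). The core subunit STAG2 (-0.10, adjusted p = 0.0492) and the loader NIPBL (-0.16, adjusted p = 0.0494) fell slightly. Of 7 SMC5/6 genes 2 rose and 1 fell, with a median of 0.03. TOP2B, the paralog of TOP2A that is also made in resting cells, rose by 0.34 (adjusted p = 1.31e-06) and TOP1 rose by 0.46 (adjusted p = 6.18e-09). The part of a changed share of cycling cells in the members' increase was not tested. Of the 10 luminal markers 6 fell and 1 rose here, with KLK3 at -0.61 (adjusted p = 6.64e-14).

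The effect of VIC-1911 at 7 days less that at 2 days was tested directly on 13811 genes, in a contrast that cancels the level difference between the time points. It was positive and passed for all 10 members, where 14.6% of all genes had a positive difference that passed. Among all genes that passed 50.8% were positive, a share of 61.1% when libraries were scaled by size alone. The difference was largest for NCAPH (2.13 ± 0.14 on the log2 scale, adjusted p = 2.2e-17), MKI67 (1.66 ± 0.10, adjusted p = 3.16e-18) and TOP2A (1.57 ± 0.08, adjusted p = 7.03e-21). It was smallest for NCAPH2 (0.53 ± 0.11, adjusted p = 0.000278), which had fallen at 2 days and did not pass at 7 days. The difference combines a fall at 2 days, where the vehicle expressed these genes at 1.42 to 4.92 times the later level, with a rise against a low 7-day vehicle. The VIC-1911–treated cells themselves stood at 22.3 ± 0.265 FPKM of TOP2A at 7 days and 23.9 ± 0.395 FPKM at 2 days, and at 5.38 ± 0.200 and 5.66 ± 0.405 FPKM of NCAPH. Other members were farther apart in the treated cells, with SMC4 at 23.0 and 33.1 FPKM, NCAPG at 6.57 and 8.89 FPKM and SMC2 at 7.26 and 9.55 FPKM at 7 and 2 days, and MKI67 was higher at 7 days, at 14.3 and 11.2 FPKM.

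With olaparib for 7 days, 9 of the 10 members were higher than in vehicle, where 28.1% of all genes passed as higher, and 1 rose at least 2-fold, where 3.63% did. The median log2 fold change was 0.45 against 0.01 over all genes. NCAPH was again first, at 3.55, 3.4 and 3.61 FPKM with olaparib (1.16 ± 0.11, adjusted p = 1.81e-10). TOP2A was at 15.4, 15.2 and 13.9 FPKM, 1.66-fold above vehicle (0.73 ± 0.06, adjusted p = 4.1e-11). NCAPG at 3.60, 3.67 and 3.45 FPKM (0.53 ± 0.10, adjusted p = 7.96e-05) and NCAPD3 at 14.4, 15.3 and 13.5 FPKM (0.48 ± 0.06, adjusted p = 1.93e-07) followed. All of these olaparib libraries were above all vehicle libraries.

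The smallest changes that passed under olaparib were those of MKI67 and SMC4. MKI67 was at 6.92, 6.78 and 6.48 FPKM (0.21 ± 0.09, adjusted p = 0.0469). MKI67 did not pass with RLE scaling (adjusted p = 0.0591), DESeq2 (0.205) or limma (0.103 and 0.0981), or without vehicle replicate 2 or 3 or any olaparib replicate (0.0587 to 0.277). SMC4 overlapped with vehicle at 11.8, 13.5 and 12.1 FPKM (0.18 ± 0.06, adjusted p = 0.0216), and it did not pass without vehicle replicate 2 (adjusted p = 0.217), vehicle replicate 3 (0.144) or olaparib replicate 2 (0.188), or with limma on log2(FPKM + 1) (0.0506). NCAPH2 was at 6.89, 9.26 and 6.74 FPKM, and its difference did not pass (-0.10 ± 0.09, adjusted p = 0.375). Replicate 2 stood apart from the others for this gene, and without it NCAPH2 was lower than in vehicle (-0.28, adjusted p = 0.00696) and lower than with VIC-1911 (-0.34, adjusted p = 0.0046). The rise of NCAPH fell under 2-fold without vehicle replicate 2. Against VIC-1911, olaparib left 9 members lower, where 12.3% of all genes passed as lower, and MKI67 2.10-fold lower (-1.07 ± 0.08, adjusted p = 6.97e-11), where 0.555% of all genes were at least 2-fold lower. This was the largest difference between the single drugs among the 10 members, and that of TOP2A was -0.57 ± 0.06 (adjusted p = 1.44e-08). All 15 G2/M genes (median -1.01) and 13 of 16 G1/S genes (median -0.31) were also lower with olaparib than with VIC-1911. NCAPD3 (-0.21 ± 0.06, adjusted p = 0.0118) did not pass without VIC-1911 replicate 2 (0.0541) or olaparib replicate 3 (0.129). Under olaparib all 16 G1/S genes rose (median 0.72) and 13 of 15 G2/M genes rose (median 0.46). CDK1 was at 40.3 FPKM with olaparib and 40.1 FPKM with VIC-1911. In contrast, PLK1 was at 17.6 and 50.6 FPKM and CCNB1 at 31.5 and 70.7 FPKM in the same order. Of 11 tested regulators and partners of condensin 4 were lower with olaparib than with VIC-1911 and none was higher.

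COMBO did not add the single-drug increases. Against vehicle 3 members were higher, NCAPH, NCAPD3 and TOP2A, where 28.6% of all genes passed as higher, and 4 were lower, MKI67, SMC4, NCAPH2 and NCAPG2, where 28% passed as lower. Both shares were near the background, and the median of the members was -0.10 against 0.00 over all genes. The members moved in opposite directions. NCAPH was at 2.25, 2.43 and 2.30 FPKM (0.58 ± 0.11, adjusted p = 5.42e-05), above all vehicle libraries. MKI67 was at 3.04, 4.42 and 3.89 FPKM (-0.62 ± 0.09, adjusted p = 9.53e-07), below all vehicle libraries.

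SMC4 at 8.82, 8.85 and 8.02 FPKM fell by 0.36 ± 0.07 (adjusted p = 2.68e-05), while its partner SMC2 at 3.76, 4.33 and 4.24 FPKM overlapped with vehicle (-0.10 ± 0.07, adjusted p = 0.226, 95% interval -0.25 to 0.04). In condensin II NCAPD3 at 11.7, 13.9 and 12.2 FPKM rose by 0.30 ± 0.06 (adjusted p = 0.000152), and NCAPG2 at 5.39, 5.55 and 5.23 FPKM fell by 0.28 ± 0.06 (adjusted p = 0.000251). NCAPH2 at 6.89, 6.35 and 6.66 FPKM fell by 0.30 ± 0.09 (adjusted p = 0.00474). NCAPH2 had passed with neither single drug against vehicle. Of the genes that share exon bases with NCAPD3, JAM3 rose by 0.62 (adjusted p = 0.000381) and VPS26B did not pass (-0.05, adjusted p = 0.362). Their part in the change of NCAPD3 was not tested. TOP2A at 9.96, 10.6 and 9.99 FPKM rose by 0.21 ± 0.06 (adjusted p = 0.00566), a call that was lost without vehicle replicate 2 (adjusted p = 0.0979) or 3 (adjusted p = 0.0503). NCAPD2 at 18.1, 20.5 and 16.7 FPKM (adjusted p = 0.519) and NCAPG at 1.97, 2.67 and 2.27 FPKM (adjusted p = 0.454) overlapped with vehicle.

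Against olaparib, from the same run of library numbers, COMBO was lower for 8 members, where 6.95% of all genes passed as lower. The log2 fold changes were -0.53 and -0.54 for SMC2 and SMC4, -0.41 to -0.63 for the condensin I subunits, -0.53 for NCAPG2 of condensin II and -0.52 for TOP2A. Their means were -0.54 for condensin I and -0.30 for condensin II. MKI67 fell most, 1.77-fold (-0.82 ± 0.09, adjusted p = 2.57e-07). NCAPD3 (-0.18 ± 0.06, adjusted p = 0.0528, 95% interval -0.31 to -0.06) and NCAPH2 (-0.21 ± 0.09, adjusted p = 0.149) did not pass. With no count filter NCAPD3 (adjusted p = 0.0125) and NCAPH2 (0.0445) passed, as they did without olaparib replicate 3 (0.037 and 0.0322), and NCAPD3 also without COMBO replicate 2 (0.00443). Against VIC-1911 all 10 members were lower with COMBO, where 22.2% of all genes passed as lower, and 7 were at least 2-fold lower, where 1.82% were. Of these 7, NCAPD2 was under 2-fold without COMBO replicate 3 (-0.97) and with upper-quartile scaling (-0.998). MKI67 was 3.71-fold lower (-1.89 ± 0.09, adjusted p = 1.78e-16), NCAPG 2.81-fold and SMC4 2.61-fold. All 15 G2/M genes and 15 of 16 G1/S genes were lower with COMBO than with olaparib, at medians of -0.52 and -0.42. The kinesin gene CENPE fell by 0.70 (adjusted p = 7.87e-06) and the ribonucleotide reductase gene RRM2 fell by 0.89 (adjusted p = 2.19e-11).

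**Figure D3:**
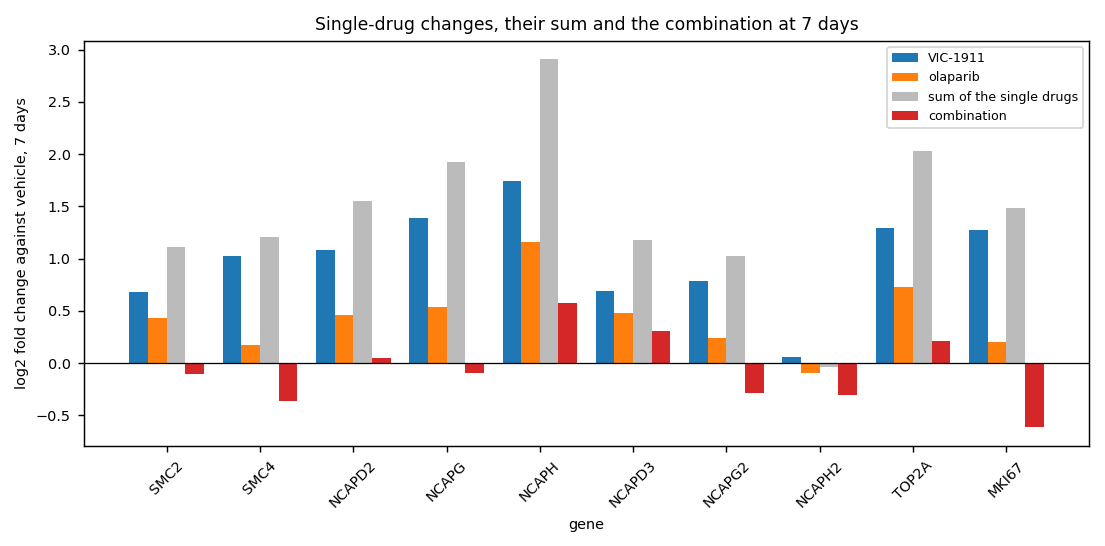
Log2 fold change against the 7-day vehicle (vertical axis) of the 10 genes for VIC-1911, olaparib, the sum of these 2 values, and COMBO (bars from 0). The COMBO bar lies below the sum for every gene, by 0.26 for NCAPH2 and by 2.33 for NCAPH.

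The interaction of the drugs, the effect of VIC-1911 on top of olaparib less its effect on vehicle, was negative and passed for 9 members, where 22.9% of all genes had a negative interaction that passed. For NCAPH the single-drug changes summed to 2.91 on the log2 scale and COMBO gave 0.58, an interaction of -2.33 ± 0.14 (adjusted p = 3.97e-14). For MKI67 they summed to 1.48 and COMBO gave -0.62 (interaction -2.10 ± 0.12, adjusted p = 1.79e-14). For TOP2A they summed to 2.03 and COMBO gave 0.21 (interaction -1.82 ± 0.09, adjusted p = 1.4e-16). VIC-1911 thus went with higher levels of these genes on vehicle and with lower levels on olaparib.

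Condensin I subunits had interactions of -1.5 to -2.33 and condensin II subunits of -0.26 to -1.31. NCAPH2 was the exception (-0.26 ± 0.13, adjusted p = 0.0926, 95% interval -0.52 to -0.00495), and it passed with no count filter (adjusted p = 0.0257) and without vehicle replicate 1 (0.0331) or olaparib replicate 3 (0.0149). The interaction was also negative and passed in all 15 G2/M genes (median -2.06) and all 16 G1/S genes (median -1.42). The same held for all 6 periphery genes (median -0.53) and for 10 of 16 genes of cohesin and its regulators (median -0.36). The interaction sets COMBO and olaparib, from the same run, against VIC-1911 and vehicle, from the other, so that a constant difference between the runs cancels in it.

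Amounts of protein or of assembled complexes were not measured in these libraries. The balance between condensin I and condensin II RNAs was followed in each library, without a test. The measure was the ratio of the mean FPKM of the 3 condensin I subunits to that of the 3 condensin II subunits. It was 1.31 ± 0.106 in the 2-day vehicle and 1.5 ± 0.0101 with VIC-1911, and the lowest treated library (1.49) was above the highest vehicle library (1.38). At 7 days it was 0.868 ± 0.0497 in vehicle, 1.36 ± 0.0177 with VIC-1911, 1.08 ± 0.0698 with olaparib and 0.937 ± 0.0550 with COMBO. All VIC-1911 and olaparib libraries lay above all vehicle libraries, while COMBO (0.884 to 0.994) overlapped with vehicle (0.828 to 0.924). As a ratio of geometric means, in which the abundant NCAPD2 weighs no more than the others, all COMBO libraries (0.570 to 0.648) lay above all vehicle libraries (0.462 to 0.550). The ratio was thus higher with VIC-1911 at each time, at 2 days with lower and at 7 days with higher levels of most subunits.

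**Figure D4:**
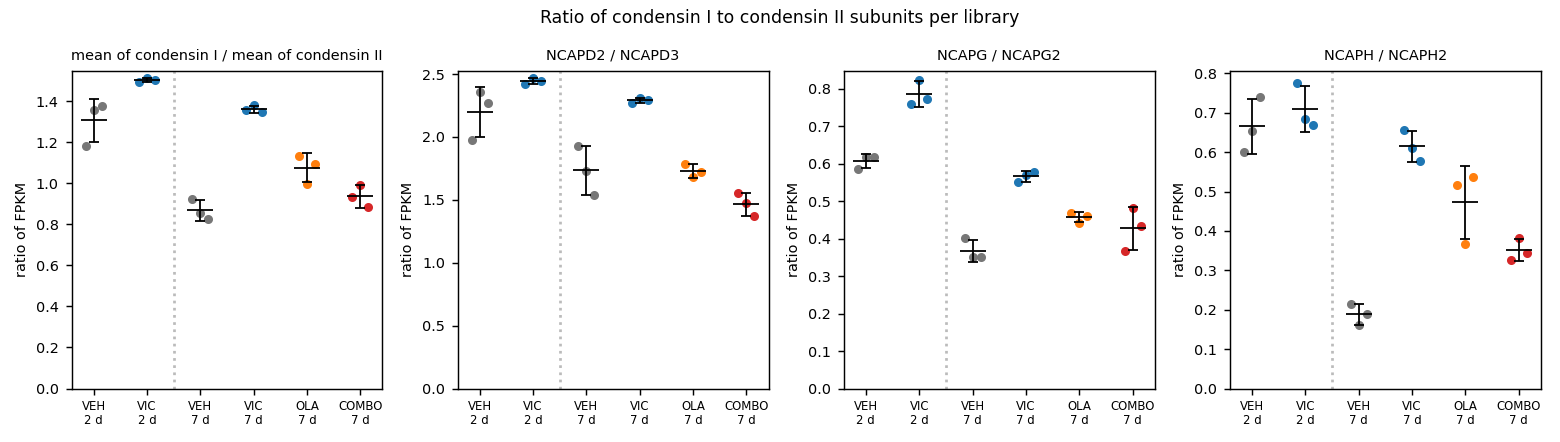
Ratios of FPKM (vertical axes, starting at 0) in the 3 libraries of each group (points) with mean and SD, for the mean of the condensin I over the mean of the condensin II subunits and for the 3 paralog pairs. The ratio of the mean RNA levels of condensin I to condensin II subunits is lowest in the 7-day vehicle, at 0.868. It is highest with VIC-1911 at 2 days, at 1.5.

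The paralog pairs differed in their values. NCAPH over NCAPH2 was 0.189 ± 0.0260 in the 7-day vehicle, 0.614 ± 0.0398 with VIC-1911, 0.473 ± 0.0922 with olaparib and 0.352 ± 0.0290 with COMBO, and no library of a drug group reached down to vehicle. NCAPG over NCAPG2 was 0.368 ± 0.0295, 0.566 ± 0.0146, 0.457 ± 0.0133 and 0.427 ± 0.0581 in the same order. NCAPD2 over NCAPD3 was 1.73 ± 0.195 in vehicle, 2.29 ± 0.0191 with VIC-1911, 1.73 ± 0.0531 with olaparib and 1.47 ± 0.0908 with COMBO. The ratio of the D subunits overlapped between olaparib and vehicle, and between COMBO (1.37 to 1.55) and vehicle (1.54 to 1.93). At 2 days NCAPG over NCAPG2 was 0.608 ± 0.0177 in vehicle and 0.786 ± 0.0341 with VIC-1911, while NCAPH over NCAPH2 overlapped (0.665 ± 0.0704 and 0.710 ± 0.0583).

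Relative to the mean of SMC2 and SMC4, condensin II subunits stood at 1.09 ± 0.0635 in the 7-day vehicle, 0.822 ± 0.0127 with VIC-1911, 1.08 ± 0.0530 with olaparib and 1.29 ± 0.0210 with COMBO. Condensin I subunits on the same scale stood at 0.944 ± 0.0105, 1.12 ± 0.0310, 1.16 ± 0.0729 and 1.21 ± 0.0735. For condensin II all COMBO libraries (1.27 to 1.31) lay above all others, whose highest was 1.15, while for condensin I the olaparib and COMBO libraries overlapped. The ratio of SMC4 to SMC2 was 2.48 ± 0.179 in vehicle, 3.18 ± 0.150 with VIC-1911, 2.09 ± 0.132 with olaparib and 2.09 ± 0.231 with COMBO. The ratio of MKI67 to TOP2A, the usual proliferation markers, was 0.649 ± 0.0345 in vehicle and 0.644 ± 0.0572 with VIC-1911, and it was 0.453 ± 0.0102 with olaparib and 0.370 ± 0.0580 with COMBO. All olaparib and COMBO libraries, from the other run of library numbers, lay below all vehicle and VIC-1911 libraries for this ratio.

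By mean FPKM the upper places among the 7-day groups were alike in most members, while the lowest place differed. VIC-1911 was highest for every member, and olaparib came next for all but NCAPH2. The lowest place was held by vehicle for NCAPH, NCAPD3, TOP2A and NCAPD2 and by COMBO for the others. Neighbors that did not differ by the test were vehicle and COMBO for SMC2, NCAPG and NCAPD2, olaparib and COMBO for NCAPD3, and all neighboring groups for NCAPH2.

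Across the 12 libraries of 7 days, which share the 4 groups, the likeness of genes was described by Pearson's correlation of log2 counts scaled by library size. The genes most like TOP2A were TUBA1B, NUSAP1, TIMELESS, CDCA2 and DNMT1 (r 0.989 to 0.991). Those most like NCAPG were ANLN, DEPDC1, STIL, INCENP and CDCA3 (0.987 to 0.993). Those most like NCAPG2 were NEK2, SMC4, ECT2, CASC5 and FOXM1 (0.985 to 0.991), and those most like MKI67 were CASC5, CENPF, CENPE, MYO19 and ASPM (0.982 to 0.990). SMC4 was thus the only member in any of these 4 lists. With TOP2A the other members had r of 0.981 for NCAPD2, 0.976 for NCAPH, 0.965 for NCAPG, 0.941 for SMC2, 0.917 for NCAPD3, 0.907 for NCAPG2, 0.888 for SMC4 and 0.863 for MKI67, and 0.399 for NCAPH2.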

How the data were processed

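Poly(A) RNA of 18 C4-2B libraries was sequenced by the authors, who used Trimmomatic to remove adapters and STAR (2.6.0 in the submitters' processing notes) to map reads to GRCh38 and count them per gene. The deposited raw counts, 1 table per time, were used without change for all tests. The deposited FPKM values, made by the authors with an in-house script, were used for levels and ratios. FPKM at 7 days follow from the counts, while those at 2 days rest on other read numbers, which for the members were 0.951 to 1.03 times those of the median gene. The strand setting of the counting is not given in the sources used here, and the paper and the labels name different kits.

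In R 4.3.3, edgeR 4.0.16 (TMM, glmQLFit, glmQLFTest) was fitted to the 6 libraries of 2 days (12241 genes), the 12 of 7 days (14409 genes) and, for the difference between times, 12 vehicle and VIC-1911 libraries (13811 genes). Genes entered a fit when 3 or more of its libraries held 10 or more counts each. The tests are two-sided and were adjusted by Benjamini-Hochberg over all genes tested. A gene passed at an adjusted p under 0.05, and a fold limit of 1.5 (2 days) or 2 (7 days) is named where used. Standard errors are the absolute log2 fold change divided by the square root of F. Members, lists and tests were chosen with earlier results of these data known. Named genes were the 10 members, the 5 genes most correlated with each of TOP2A, NCAPG, NCAPG2 and MKI67, and up to 2 genes per direction with the lowest adjusted p in each cell cycle or chromosome list. From these, genes bearing on the members were given. TRIM59, IFT80, LCORL, JAM3, VPS26B, SCO2 and MRPL51 were named for their exon overlap.

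Alternatives were upper-quartile, RLE and library-size scaling, no filter, DESeq2 1.42.0, limma 3.58.1 on log2(FPKM + 0.1) and log2(FPKM + 1), a replicate block, the compared groups alone, each library left out, and geometric means for the ratio. Biological coefficients of variation were 3.44%, 4.43% and 3.99% in the 3 fits. On simulated counts for VIC-1911 against vehicle, edgeR recovered 188 of 200 genes changed 1.5-fold at 2 days (12129 genes), with 7 false calls. At 7 days it recovered 200 of 200 changed 2-fold (14251 genes), with 8 false calls. DESeq2 recovered 164 at 2 days and 199 at 7 days. The simulation used 1 spread for all genes and changed only well-counted genes. It therefore does not cover low counts or the members' smaller falls at 2 days. Promoters are RefSeq windows of GRCh38.p14.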

Additional observations from a re-analysis of the deposited data

Results flagged for a closer look

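The effect of VIC-1911 on vehicle differed from its effect on olaparib at 7 days, by edgeR's test of the interaction, for 9 members. The interaction on the log2 scale was -1.21 for SMC2, -1.56 for SMC4, -1.50 for NCAPD2, -2.03 for NCAPG, -2.33 for NCAPH, -0.875 for NCAPD3, -1.31 for NCAPG2, -1.82 for TOP2A and -2.10 for MKI67. The effect of VIC-1911 at 7 days also differed from that at 2 days for all 10 members. This difference was 0.995 for SMC2, 1.27 for SMC4, 1.30 for NCAPD2, 1.45 for NCAPG, 2.13 for NCAPH, 1.07 for NCAPD3, 1.17 for NCAPG2, 0.526 for NCAPH2, 1.57 for TOP2A and 1.66 for MKI67. Groups of 3 libraries are too small for a check of single samples that stand apart.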

How the results depend on the processing

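Of the members' log2 fold changes recomputed under other scalings, filters, tools, groups or the replicate block, 751 kept their direction and their side of the threshold, 4 passed newly and 5 no longer passed. With a library left out 634 did, 7 passed newly, 13 no longer passed and 6 changed sign, none of them past the test. The changes of sign were in NCAPH2 with VIC-1911 at 7 days (-0.008308 to 0.1307 with a library left out, lowest without vehicle replicate 2), NCAPH2 with olaparib (-0.282 to 0.02339, highest without olaparib replicate 3), NCAPD2 with COMBO (-0.02725 without COMBO replicate 2, -0.01438 without vehicle replicate 2, up to 0.1137) and NCAPG with COMBO (-0.224 to 0.03849, positive at 0.002155 without COMBO replicate 1 and highest without vehicle replicate 1). The number of members at least 2-fold higher with olaparib went from 1 to 0 with limma on log2(FPKM + 1) and was 0 to 1 with a library left out (0 without vehicle replicate 2). That of members at least 2-fold lower with olaparib than with VIC-1911 went from 1 to 0 with limma on log2(FPKM + 1), whose pseudocount shrinks the change of low genes. Members at least 2-fold higher with VIC-1911 at 7 days were 5 to 6 with a library left out, in place of 6. Members at least 2-fold lower with COMBO than with VIC-1911 were 6 to 7 with a library left out, 6 with upper-quartile scaling and 5 with limma on log2(FPKM + 1), in place of 7. As a ratio of geometric means, condensin I over condensin II was 0.961 and 1.11 in vehicle and VIC-1911 at 2 days and 0.493, 0.927, 0.719 and 0.603 in vehicle, VIC-1911, olaparib and COMBO at 7 days, in the same order of group means within each time, but with no overlap between COMBO and vehicle.

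Libraries with the same replicate number did not deviate together (r -0.0356 to 0.111 at 7 days and -0.00287 to 0.0438 at 2 days). With the replicate block 9 members passed in COMBO against olaparib in place of 8, since NCAPD3 passed (log2 -0.17, adjusted p = 0.0482), and the block changed no other call. No scaling moved the median of all genes by over 0.1 on the log2 scale. The main limits are 3 libraries per group in 1 cell line, the shallow 2-day libraries and olaparib replicate 1, and the shared 7-day vehicle, which enters all 3 comparisons with vehicle.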
